A study of Mus musculus with 67 samples.

Results

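The 9 genes described here, Foxp3, Ikzf2, Ikzf4, Il2ra, Ctla4, Nrp1, Lrrc32, Izumo1r and Gpr83, are the ones by which regulatory T cells (Tregs) are most often recognised. They were picked by name for their known roles in these cells, with earlier results of these data known. Each of them was found among the 24461 genes of the larger of the series' 2 experiments. Their levels show how much of each Treg gene the libraries held. They bear on how pure the sorted Tregs were but do not measure it on their own.

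The study sequenced RNA of T cells sorted from the mouse hypothalamus and from the rest of the brain, on standard diet (SD) or on a high-fat, high-sugar (HFHS) diet. The larger experiment held 59 libraries in 16 groups of 2 to 4, each library made from a pool of mice. It crossed 2 cell types, 2 tissues, 2 strains and 2 diets, with 16 activated conventional T cell (activated Tconv) and 16 Treg libraries from the hypothalamus and 13 and 14 from the rest brain. The mice carried green fluorescent protein (GFP) under control of Foxp3. Activated Tconv were sorted as live CD4+ CD25− Foxp3-GFP− cells that were high for CD44 and low for CD62L. The labels name the other cells as Tregs, and the methods give no gate for the Tregs of this experiment. The Balb/c mice were females and the C57Bl/6J mice were males, so strain and sex cannot be told apart. The labels of the larger experiment give no age. A pilot experiment held 8 hypothalamic libraries, 1 per condition, all from females. They paired CD4 T cells with Tregs from Balb/c Foxp3-GFP animals after 16 weeks of either diet, from leptin-deficient ob/ob animals and from C57Bl/6J wild-type animals without the reporter.

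Tregs are CD4 T cells that hold back immune responses, and their development and function depend on the transcription factor Foxp3. Foxp3 raises the transcription of some genes, among them Il2ra and Ctla4, and lowers that of others, such as Il2. Some of the genes it raises also rise in activated conventional T cells, so single genes can be shared between the cell types while their combination marks Tregs. CD25 is the protein of Il2ra, and both CD25 and Foxp3-GFP were part of the sort of the activated Tconv. Differences in Foxp3 and Il2ra between the sorted populations therefore check the labels and are not findings about the cells.

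The depth of the libraries differed between the populations. Total counts were 8938477 to 24985589 in rest brain Tregs and 11340063 to 28187009 in rest brain activated Tconv. They were 13196690 to 20538309 in hypothalamic activated Tconv and 1724149 to 38482277 in hypothalamic Tregs. Genes with more than 10 counts had medians of 10767 in rest brain activated Tconv, 9593 in hypothalamic activated Tconv, 8802.5 in rest brain Tregs and 4476 in hypothalamic Tregs. The smallest number was 2108 genes, in a hypothalamic Treg library, against a lowest value of 9004 in hypothalamic activated Tconv. These gene numbers changed with cell type and tissue in the same direction as several results below, and their part in them was not tested. In bulk RNA, fewer cells of a type and less RNA per cell cannot be told apart.

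The labels were checked with marker genes of T cells and of other cells. Levels are given as CPM, a gene's counts scaled to a library total of 1000000. The summed level of 8 T cell genes, Cd3e, Cd3d, Cd3g, Cd4, Lck, Cd2, Lat and Cd5, had medians of 10019 CPM in rest brain Tregs, 9531 in rest brain activated Tconv and 9116 in hypothalamic Tregs. In hypothalamic activated Tconv the median was 10019 CPM as well. A pair of Treg libraries stood apart from their label. The C57Bl/6J SD hypothalamic Treg library 11_15 held 237 CPM of the T cell genes, 4304 CPM of endothelial, 2830.5 CPM of macrophage and 2177 CPM of microglial genes. The Balb/c SD hypothalamic Treg library 32_36 held 28836 CPM of microglial genes beside 4232 CPM of T cell genes. Foxp3 was at 1.19 CPM in the first and 0.0977 CPM in the second. Tests of the members in hypothalamic Tregs are given with these 2 libraries and then without them. Most other values, and the other gene lists, are given with them only.

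Foxp3 is the transcription factor that defines the lineage. In the rest brain it ranged from 241 to 767 CPM in the 14 Treg libraries, with a median of 385 CPM. In the 13 activated Tconv libraries it ranged from 0.0355 to 12.6 CPM, with a median of 6.08 CPM. Every Treg library was above every activated Tconv library, and the median of the activated Tconv was 1.58% of that of the Tregs. The highest single activated Tconv library reached 3.26% of it. The low Foxp3 estimate in the cells gated as negative is uncertain, because other genes overlap Foxp3. The fitted log2 fold change, the base-2 logarithm of the ratio between Tregs and activated Tconv, was 5.99 with a standard error (SE) of 0.46. The adjusted p was 7.80e-10, from the quasi-likelihood F test of edgeR with the Benjamini-Hochberg correction over all genes tested, which is meant to limit the share of false calls. On simulated data the hypothalamic comparison of cell types gave a larger share of false calls than its threshold of 0.05 allows, so its adjusted p values are less certain.

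In the hypothalamus the same gene was less even. Foxp3 ranged from 0.0977 to 862 CPM in the 16 Treg libraries, with a median of 206 CPM. The activated Tconv ranged from 0 to 13.8 CPM, with a median of 3.94 CPM, which was 1.91% of the Treg median. Of the 16 Treg libraries, 12 were above the highest activated Tconv library and 4 were not. These 4 were the 2 that stood apart by their markers, the C57Bl/6J HFHS library 06_10 at 0.429 CPM and the C57Bl/6J SD library 43_47 at 3.48 CPM. The last of them had the smallest total of counts, 1724149, and the library 06_10 had the fewest genes, 2108. Foxp3 was higher in Tregs by a log2 fold change of 5.53 (SE 1.03, adjusted p 0.000195), and by 5.69 (adjusted p 4.56e-05) without the 2 libraries. The adjusted p ranged from 5.20e-12 to 0.0194 over the alternatives. The standard deviation of log2(CPM + 1), pooled within groups of strain and diet, was 3.62 in the hypothalamic and 0.420 in the rest brain Treg libraries.

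**Figure D1:**
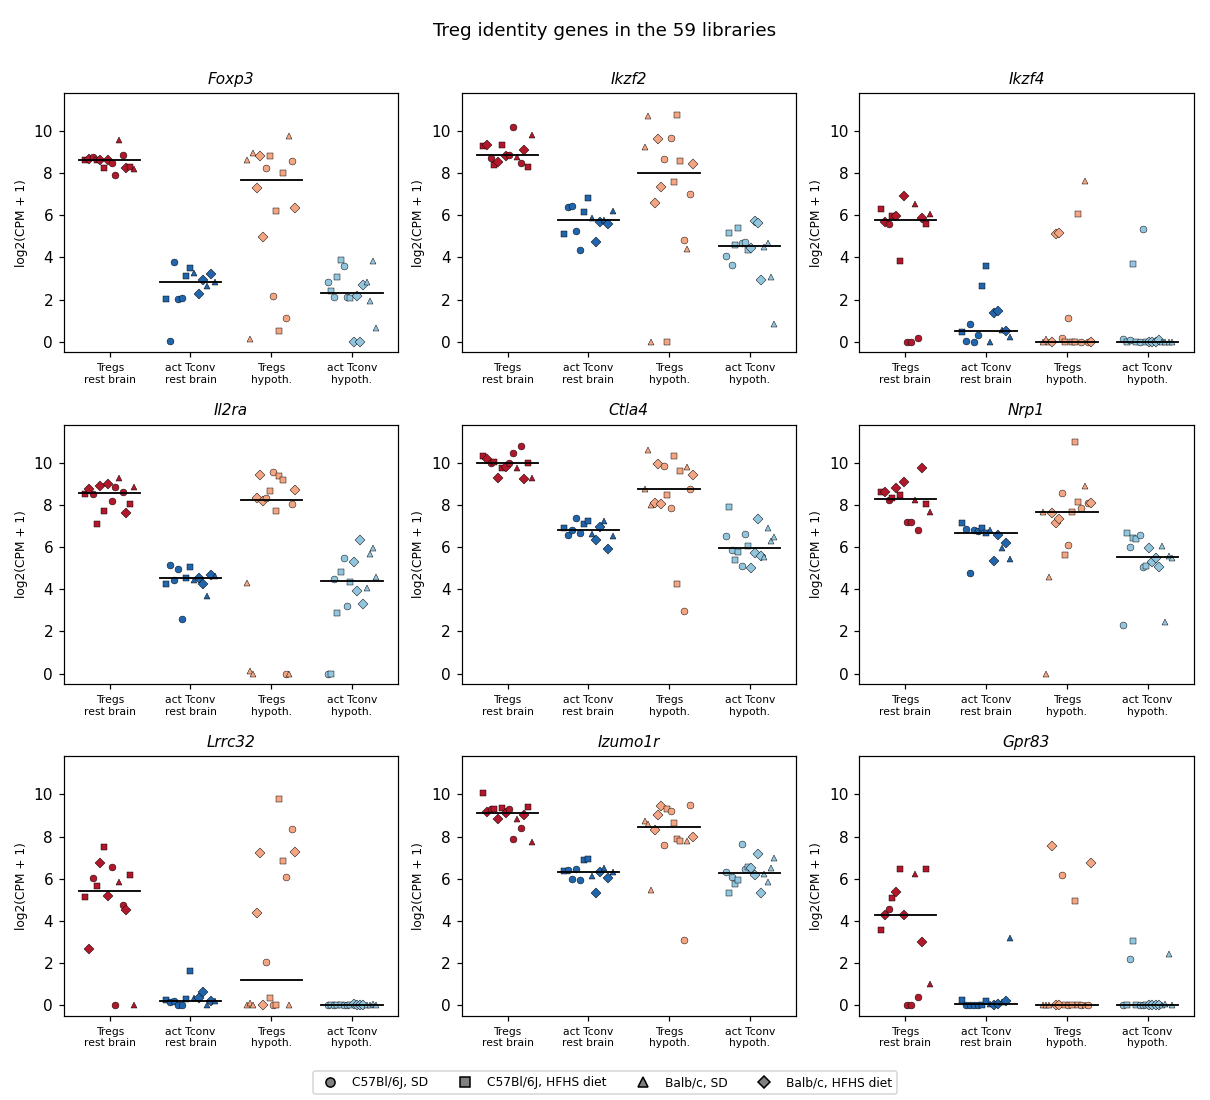
Level of each of the 9 Treg genes as log2(CPM + 1) in the 59 libraries by cell type and tissue, with markers by strain and diet and a line at the median. Rest brain Tregs sit above rest brain activated Tconv in all libraries for Foxp3, Ikzf2, Il2ra, Ctla4 and Izumo1r, while hypothalamic Treg libraries spread down to 0 for several of the genes.

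The counts of Foxp3 were divided over 3 RefSeq transcripts. NM_054039, which begins with the upstream first exon at X:7579669-7579846 (GRCm38), ranged from 239.8 to 735 CPM in rest brain Tregs, with a median of 366 CPM. It was at 0 in 28 of the 29 activated Tconv libraries, and in the remaining library, Balb/c SD rest brain 42_46, it was at 6.09 CPM. NM_001199348, whose first exon lies at X:7580483-7580578, had medians of 10.96 CPM in rest brain Tregs, 5.21 CPM in rest brain activated Tconv and 3.93 CPM in hypothalamic activated Tconv. The Foxp3 estimate in activated Tconv was thus assigned, but for that library, mostly to a transcript that held a small part of it in rest brain Tregs. Hypothalamic Tregs were mixed. In the Balb/c HFHS library 16_20 NM_001199348 was at 89.9 CPM and NM_054039 at 67.2 CPM, and the low Foxp3 of C57Bl/6J SD 43_47, C57Bl/6J HFHS 06_10 and Balb/c SD 32_36 fell on NM_001199348 alone. These are estimates of how shared reads divide between transcripts, not counts of reads that can belong to only 1 of them.

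Annotated genes overlap Foxp3 at both ends. An exon of the long noncoding RNA Flicr, on the same strand, covers 178 bases of the upstream first exon and 96 bases of the other. Exons of Ccdc22, on the opposite strand, cover 359, 75, 60 and 96 bases of the last exon at X:7592900-7595234. Flicr had a median of 51.8 CPM in rest brain Tregs and 0.223 CPM in rest brain activated Tconv, and it was at 0 in 15 of the 16 hypothalamic activated Tconv libraries. Ccdc22 had medians of 7.97 CPM in rest brain Tregs and 7.73 CPM in rest brain activated Tconv, close to the level of Foxp3 in the latter. In hypothalamic activated Tconv the median of Ccdc22 was 9.52 CPM. Whether strand was used in the counting is not given in the sources used here, so the small Foxp3 estimate of activated Tconv and the level of Flicr are uncertain, and the part of the overlaps was not tested.

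The 250 bases upstream of the 2 annotated Foxp3 starts were read for the letters of binding sites of T cell transcription factors on both strands. The motifs were forkhead TGTTTAC, NFAT GGAAAA, STAT TTCNNNGAA, RUNX TGTGGT, CRE TGACGTCA and AP-1 TGANTCA. Over 32536 promoter windows of the genome these letters occurred in 3.17%, 20.4%, 7.04%, 13.96%, 1.56% and 6.73%, in that order. The first window, X:7579426-7579675 on the plus strand of GRCm38.p6 (RefSeq starts), lies upstream of the transcript that dominated in rest brain Tregs, and it held none of the letters. The second, X:7580233-7580482 on the plus strand, lies upstream of the start of NM_001199348, and it held an NFAT and a STAT match that overlap, shown in capitals. Both windows lie within an annotated exon of Flicr, and the first also reaches into annotated first exons of Foxp3, so they include transcribed sequence. A match describes letters only, and binding was not measured.

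Foxp3 upstream start: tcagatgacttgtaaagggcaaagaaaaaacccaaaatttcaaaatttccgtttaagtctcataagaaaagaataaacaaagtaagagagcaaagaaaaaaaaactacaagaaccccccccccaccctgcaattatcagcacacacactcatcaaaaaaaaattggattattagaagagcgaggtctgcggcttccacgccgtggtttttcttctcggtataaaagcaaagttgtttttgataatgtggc

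Foxp3 downstream start: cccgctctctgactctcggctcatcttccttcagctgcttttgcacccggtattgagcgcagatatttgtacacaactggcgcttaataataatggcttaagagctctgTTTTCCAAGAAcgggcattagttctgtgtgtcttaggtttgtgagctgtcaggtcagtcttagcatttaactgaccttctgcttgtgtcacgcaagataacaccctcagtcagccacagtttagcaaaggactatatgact

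Ikzf2 encodes Helios, an Ikaros family factor that stabilises Tregs. It ranged in the rest brain from 309 to 1144 CPM in Tregs and from 19.4 to 113 CPM in activated Tconv, with medians of 456 and 53.5 CPM, and the ranges did not overlap. Tregs were higher by a log2 fold change of 3.24 (SE 0.26, adjusted p 1.91e-09). The activated Tconv median was 11.7% of the Treg median, against 1.58% for Foxp3, so Ikzf2 marked the populations less sharply. In the hypothalamus the Treg libraries ranged from 0 to 1711 CPM with a median of 264 CPM, and the activated Tconv from 0.802 to 51.5 CPM with a median of 22.1 CPM. The log2 fold change there was 4.29 (SE 0.87, adjusted p 0.000397), and 3.96 (adjusted p 0.000696) without the 2 libraries. Its adjusted p ranged from 1.40e-08 to 0.0401 over the alternatives. Ikzf2 and Foxp3 did not move together among hypothalamic Tregs. The libraries C57Bl/6J HFHS 77_80 and Balb/c SD 42_46 had 0 counts of Ikzf2 beside 445 and 497 CPM of Foxp3. The library C57Bl/6J HFHS 06_10 had 1711 CPM of Ikzf2 beside 0.429 CPM of Foxp3.

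Ikzf4 encodes Eos, a family member that helps Foxp3 to silence genes. Its levels in rest brain Tregs ranged from 0 to 120.3 CPM with a median of 53.6 CPM, and 11 of the 14 libraries were above the highest activated Tconv library. Activated Tconv of the rest brain ranged from 0 to 10.996 CPM with a median of 0.417 CPM. Ikzf4 was called, with a log2 fold change of 5.68 (SE 1.12, adjusted p 0.000883). Over 5 alternatives the adjusted p ranged from 6.22e-10 to 0.0731, and the call was lost in 1 of them. The lowest rest brain Treg libraries were the C57Bl/6J SD libraries 67_71 and 11_15 at 0 and 01_05 at 0.120 CPM. They were also the rest brain Treg libraries with the fewest genes, 6214, 5433 and 6807, and the part of library complexity was not tested. In the hypothalamus 9 of 16 Treg libraries and 11 of 16 activated Tconv libraries were at 0, and the highest were at 195 and 39.8 CPM. Ikzf4 was called higher in hypothalamic Tregs, with a log2 fold change of 4.86 (SE 1.68, adjusted p 0.0246), and of 5.07 (adjusted p 0.0200) without the 2 libraries. Its adjusted p ranged from 0.000685 to 0.163 over the alternatives. The call rested on few libraries. It was lost without the Balb/c SD Treg library 06_10 (log2 fold change 2.22, adjusted p 0.218) or the C57Bl/6J SD Treg library 43_47 (4.26, 0.0560). Without the C57Bl/6J HFHS Treg library 72_76 the fold could not be fitted (adjusted p 0.9999). A count of 0 allowed up to 0.200 CPM in the median hypothalamic Treg library and up to 1.74 CPM in the smallest, taking 3 counts as the limit for counting error alone.

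Il2ra encodes CD25, the alpha chain of the receptor for interleukin 2, and CD25 was part of the sort of the activated Tconv. In the rest brain it ranged from 134 to 617 CPM in Tregs, with a median of 379 CPM, and from 4.996 to 34.1 CPM in activated Tconv, with a median of 22.0 CPM. Il2ra was higher in these Tregs by a log2 fold change of 4.07 (SE 0.27, adjusted p 4.17e-11). In the hypothalamus the medians were 301 CPM in Tregs and 20.3 CPM in activated Tconv, and 11 of 16 Treg libraries were above the highest activated Tconv library at 79.2 CPM. Its log2 fold change in this tissue was 2.41 (SE 0.91, adjusted p 0.0384), and 2.59 (adjusted p 0.0124) without the 2 libraries. Over the alternatives the adjusted p ranged from 0.00617 to 0.259, and leaving out any 1 of 13 single libraries raised it past 0.05, with log2 fold changes of 0.63 to 2.42. The lowest of these, 0.63 (adjusted p 0.787), was without the Balb/c SD Treg library 37_41. The others were the Treg libraries Balb/c HFHS 26_31, C57Bl/6J SD 43_47 and C57Bl/6J HFHS 06_10. Among activated Tconv they were C57Bl/6J SD 67_71 and 11_15, C57Bl/6J HFHS 72_76, Balb/c SD 37_41, 32_36 and 06_10, and Balb/c HFHS 16_20, 11_14 and 26_31. Low Il2ra values lay in 2 groups. The 4 Balb/c SD hypothalamic Treg libraries held 18.3, 0.0977, 0 and 0 CPM. The C57Bl/6J SD library 11_15 was at 0 as well, and the other 11 hypothalamic Treg libraries ranged from 207 to 757 CPM.

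Ctla4 encodes an inhibitory receptor by which Tregs take B7 ligands from other cells, and activated conventional T cells express it too. Rest brain levels ranged from 598 to 1774 CPM in Tregs and from 58.2 to 165 CPM in activated Tconv, with medians of 1001 and 109 CPM. Ctla4 was higher in Tregs by a log2 fold change of 3.05 (SE 0.15, adjusted p 1.19e-12), with the smallest SE among the members. In the hypothalamus the Treg libraries ranged from 6.89 to 1570.1 CPM with a median of 431 CPM, and the activated Tconv from 31.5 to 236 CPM with a median of 60.8 CPM. This was a log2 fold change of 2.83 (SE 0.52, adjusted p 0.000183), and 2.74 (adjusted p 9.02e-05) without the 2 libraries. Its adjusted p ranged from 9.73e-08 to 0.00641 over the alternatives. The library Balb/c SD 32_36 held the most Ctla4, 1570.1 CPM, with 0.0977 CPM of Foxp3.

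Of the annotated transcripts of Ctla4, NM_001281976 lacks the exon at 1:60913219-60913328, which has 110 bases. Its share of the gene's TPM, a measure that divides estimated counts by transcript length and scales them to the same total, had a median of 13.5% in rest brain Tregs, with a range from 0.0305% to 47.4%. In rest brain activated Tconv the median was 27.6%, with a range from 0% to 70.8%, so the ranges overlapped. In the hypothalamus the medians were 0.0376% in Tregs, with a range from 0% to 100%, and 0% in activated Tconv, with a range up to 42.99%. The window upstream of the Ctla4 start, 1:60908775-60909024 on the plus strand of GRCm38.p6 (RefSeq), is shown because NFAT factors bind the promoters of many genes of activated T cells. It held 1 NFAT match, in capitals, and none of the other motifs.

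Ctla4: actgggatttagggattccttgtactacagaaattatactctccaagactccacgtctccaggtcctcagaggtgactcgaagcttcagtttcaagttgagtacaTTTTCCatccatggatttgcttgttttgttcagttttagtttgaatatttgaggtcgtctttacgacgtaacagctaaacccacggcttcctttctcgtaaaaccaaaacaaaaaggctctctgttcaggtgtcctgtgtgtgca

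Nrp1 encodes neuropilin-1, a coreceptor that is high on Tregs made in the thymus. It ranged in the rest brain from 111 to 856 CPM in Tregs and from 26.6 to 140.2 CPM in activated Tconv, with medians of 309 and 101 CPM. It was the least selective member by ratio of medians, with the activated Tconv at 32.8% of the Tregs, and 13 of 14 Treg libraries were above the highest activated Tconv library. Its log2 fold change was 1.77 (SE 0.23, adjusted p 5.81e-06). In the hypothalamus it ranged from 0 to 1993 CPM in Tregs and from 3.92 to 102 CPM in activated Tconv, with medians of 202 and 45.2 CPM. The log2 fold change was 2.47 (SE 0.68, adjusted p 0.00523), and 2.55 (adjusted p 0.000993) without the 2 libraries. Over the alternatives the adjusted p ranged from 0.000119 to 0.0585. Nrp1 is also expressed by endothelial cells and macrophages, and the library C57Bl/6J SD 11_15, high in genes of both, held 229 CPM of it. The part of such cells in the other libraries was not tested.

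Lrrc32 encodes GARP, which holds latent transforming growth factor beta on the surface of activated Tregs. In rest brain Tregs it ranged from 0 to 179 CPM with a median of 42.3 CPM, and in activated Tconv from 0 to 2.09 CPM with a median of 0.176 CPM. Lrrc32 was called, with a log2 fold change of 7.56 (SE 1.14, adjusted p 4.14e-05). Without the Balb/c SD Treg library 37_41 the fold could not be fitted and the call was lost (adjusted p 0.9998). In the hypothalamus 14 of 16 activated Tconv libraries were at 0, and the 2 others held 1 count each. The 16 Treg libraries held 33202 counts together, a ratio of CPM of 17487 with a 95% counting interval of 4841 to 144402. Their median was 1.74 CPM and their highest value 869 CPM, in the library C57Bl/6J HFHS 06_10, and 5 libraries above 100 CPM each held most of the counts. Lrrc32 was called with an adjusted p of 0.00015 in the hypothalamus, which ranged from 5.09e-37 to 0.00134 over the alternatives that could be fitted. Without the Balb/c SD Treg library 32_36 the fold could not be fitted (adjusted p 0.9999), nor could it without both libraries that stood apart. Lrrc32 is also expressed by endothelial cells and platelets, and the library C57Bl/6J SD 11_15 held 67.1 CPM of it.

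Izumo1r encodes folate receptor 4, which Tregs keep at a high level. Its levels in the rest brain ranged from 216 to 1072 CPM in Tregs and from 39.3 to 119.9 CPM in activated Tconv, with medians of 563 and 80.2 CPM. Izumo1r was higher in Tregs by a log2 fold change of 2.63 (SE 0.18, adjusted p 7.94e-11). In the hypothalamus it ranged from 7.73 to 713 CPM in Tregs and from 39.2 to 202 CPM in activated Tconv, with medians of 353 and 76.4 CPM. The log2 fold change was 2.08 (SE 0.48, adjusted p 0.00128), and 2.07 (adjusted p 0.000331) without the 2 libraries. The adjusted p ranged from 2.17e-06 to 0.0250 over the alternatives. For Izumo1r and Ctla4 13 of 16 Treg libraries were above the highest activated Tconv library, and without the 2 libraries it was 12 of 14, as for Foxp3. Most of the Izumo1r estimate fell on NM_022888, which ends with the exon at 9:14900023-14900624, with median shares of TPM of 89.5% in rest brain Tregs and 92.5% in rest brain activated Tconv.

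Gpr83 encodes a G protein-coupled receptor induced by Foxp3, and it lies next to Izumo1r, 15024 bases away with 0 genes between them. It ranged in rest brain Tregs from 0 to 88.3 CPM with a median of 18.4 CPM, and 9 of 14 libraries were above the highest activated Tconv library. Activated Tconv of the rest brain ranged from 0 to 8.11 CPM with a median of 0.0425 CPM. The log2 fold change was 7.54 (SE 1.37, adjusted p 0.000564). Like Ikzf4, it was lowest in the C57Bl/6J SD Treg libraries 67_71 and 11_15, at 0, and 01_05, at 0.320 CPM. In the hypothalamus 12 of 16 Treg libraries and 12 of 16 activated Tconv libraries were at 0, the highest values were 186 and 7.24 CPM, and the fold could not be fitted. Gpr83 was therefore not compared between hypothalamic cell types. The windows of Il2ra, Nrp1 and Gpr83 held none of the motifs, and those of Nrp1 and Gpr83 lie inside the annotated gene. The Izumo1r window held 1 RUNX match, inside the annotated first exon, and none of the other motifs. The starts of Ikzf2, Ikzf4 and Lrrc32 were not matched to the promoter set and were not analysed here.

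Counted over the whole transcriptome, the members were a small part of the difference between the cell types. In the rest brain edgeR called 9 of 9 members, each higher in Tregs, beside 2662 of 13918 genes, or 19.1% of genes, of which 716 were higher in Tregs. Genes called higher in Tregs were 5.14% of all genes tested. The members with every rest brain Treg library above every activated Tconv library were 5 of 9, beside 30 of 14723 genes, or 0.204%. In the hypothalamus 8 of 9 members were called, each higher in Tregs, beside 3757 of 11251 genes, or 33.4% of genes. Of the 3757 genes, 84 were higher in Tregs, 0.747% of the genes tested, and 3673 were lower. There every Treg library was above every activated Tconv library for 0 of 9 members and for 0 of 14723 genes. The opposite, every Treg library below, held for 54 genes in the rest brain and 36 in the hypothalamus. The median log2 fold change of all genes was −0.35 in the rest brain and −1.48 in the hypothalamus, against 4.07 for the 9 members in the rest brain and 3.56 for the 8 members with a fitted fold in the hypothalamus. These member counts and medians include Foxp3 and Il2ra, whose differences follow the sort and check the labels only.

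The number of called genes in the rest brain changed with single libraries. It was 1296 without the Balb/c SD Treg library 42_46 and 1518 without the Balb/c SD Treg library 37_41, the only libraries of their group. Without the 2 hypothalamic libraries that stood apart, the number called in the hypothalamus was 4655 genes, with 7 members higher in Tregs. Limma-voom with quality weights, which gives less weight to libraries that vary more, called 6 members in the hypothalamus.

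The difference between the tissues was tested directly, as the interaction of cell type and tissue. It was called for 0 of 9 members by edgeR, beside 1653 of 14723 genes, or 11.2% of genes. At an unadjusted p under 0.05 there were 3098 genes and 1 member, Lrrc32, with a log2 difference of 2.99 (SE 1.37, p 0.0335, adjusted p 0.177). Gpr83 could not be fitted by edgeR. The DESeq2 Wald test called 4772 genes and 2 members, Lrrc32 upward and Gpr83 downward, and limma-voom called 6246 genes and 1 member, Gpr83 downward. Both genes rested on few hypothalamic libraries, since 5 held most of the Lrrc32 counts and 12 of 16 had 0 counts of Gpr83. Without the 2 libraries that stood apart edgeR called 0 members, 0 had an unadjusted p under 0.05, and neither Lrrc32 nor Gpr83 could be fitted. The median of all genes in this test was −0.50, and −0.70 with the size factors of DESeq2 in place of TMM, the trimmed mean of M-values.

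Levels of different genes can be compared once transcript length is taken out. In rest brain Tregs the median TPM was 716 for Ctla4 and 672 for Izumo1r, and Ctla4 was the higher in 8 of 14 libraries. Foxp3 followed at 136 TPM and Il2ra at 112 TPM, with Foxp3 the higher in 10 of 14. Nrp1 was at 70.2 TPM, Ikzf2 at 63.3, Ikzf4 at 20.5, Lrrc32 at 15.1 and Gpr83 at 11.7 TPM. In rest brain activated Tconv Izumo1r was at 74.9 TPM, Ctla4 at 66.6, Nrp1 at 18.8 and Foxp3 at 1.69 TPM. The members highest in Tregs were thus also the members highest in activated Tconv, and Foxp3 was the one whose place in the order changed most. In hypothalamic Tregs Izumo1r had 349 TPM, Ctla4 297, Il2ra 82.7 and Foxp3 65.5 TPM. In hypothalamic activated Tconv Foxp3 had 1.49 TPM beside 83.1 TPM of Izumo1r.

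The members varied between libraries of a group to different degrees. The standard deviation of log2(CPM + 1) was pooled within groups of strain and diet. Its median over members was 0.516 in rest brain Tregs, against 1.74 over 9616 genes. Lrrc32 at 2.36 and Gpr83 at 1.92 were above the median of all genes there, Ikzf4 at 1.66 was near it, and the other 6 members were at 0.601 or lower. In rest brain activated Tconv it was 0.744 against 0.558, in hypothalamic Tregs 2.85 against 2.72 and in hypothalamic activated Tconv 1.12 against 0.732. Over all 59 libraries the 36 pairs of members had a median Pearson r of 0.511, with a range from 0.293 to 0.784. These points share the split into cell types, and within rest brain Tregs the median r was 0.0710 with n of 14. Within hypothalamic Tregs it was 0.173 with n of 16.

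**Figure D2:**
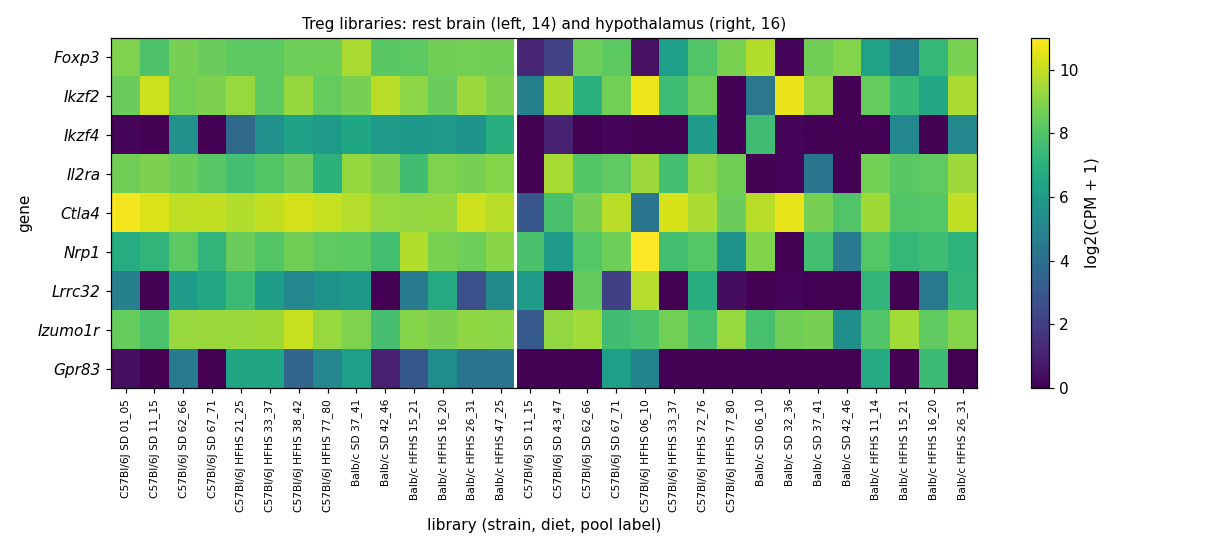
Level of the 9 genes as log2(CPM + 1) in each of the 30 Treg libraries, grouped by tissue, strain and diet. Rest brain libraries hold Foxp3 at 241 CPM or more, while hypothalamic libraries lose different members in different libraries, such as Il2ra in Balb/c SD.

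Tregs of the hypothalamus were compared with Tregs of the rest brain. By edgeR 0 of 9 members were called, beside 1425 of 12567 genes, or 11.3% of genes, of which 1422 were lower in the hypothalamus. At an unadjusted p under 0.05 there were 2974 genes and 1 member, Il2ra, with a log2 fold change of −1.58 (SE 0.72, p 0.0350, adjusted p 0.163). Without the Balb/c SD hypothalamic Treg library 37_41 the log2 fold change of Il2ra was −3.36 with an adjusted p of 0.00744. Foxp3 had a log2 fold change of −0.78 (SE 0.71, adjusted p 0.737). The median of all genes was −1.003, so the median of the members, −0.78, lay near that of the transcriptome. The tools differed here. DESeq2 called 3555 genes, with 1 member lower in the hypothalamus, Gpr83. Limma-voom called 5466 genes, with 6 members lower, Foxp3, Ikzf2, Ikzf4, Il2ra, Ctla4 and Gpr83. The limma-voom log2 fold change of Foxp3 was −2.10 with an adjusted p of 0.0373, and over the alternatives its adjusted p ranged from 0.0373 to 0.767. Without the 2 libraries that stood apart edgeR called 0 members, and Il2ra was at −1.37 (p 0.0279, adjusted p 0.112). The number of genes called ranged from 600 without the Balb/c SD rest brain library 37_41 to 2342 without the C57Bl/6J HFHS hypothalamic library 72_76. It was 824 without the Balb/c SD rest brain library 42_46. Gpr83 was called lower without the C57Bl/6J SD hypothalamic library 67_71 (−5.75, adjusted p 0.0380) or the C57Bl/6J HFHS library 06_10 (−5.46, 0.0409). Ikzf4 was called lower without the C57Bl/6J HFHS hypothalamic library 72_76 (−5.26, 0.0283) or the Balb/c SD library 06_10 (−5.13, 0.0442).

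In activated Tconv edgeR called 1 of the 8 members tested between tissues, beside 2918 of 12799 genes, or 22.8% of genes. DESeq2 and limma-voom called more members here, and their numbers are given with the processing below. The member called by edgeR was Ikzf2, lower in the hypothalamus with a log2 fold change of −1.45 (SE 0.34, adjusted p 0.0025). Its adjusted p ranged from 0.000257 to 0.0450 over the alternatives, and its log2 fold change from −1.57 to −1.33 with each library left out in turn. Nrp1, at −0.87 (adjusted p 0.0562), and Ctla4, at −0.58 (adjusted p 0.0967), were not called by edgeR. Nrp1 was called lower when 1 of 6 single libraries was left out, with values from −0.94 to −1.01 for 5 of them. These were C57Bl/6J SD rest brain 11_15 (adjusted p 0.0342), C57Bl/6J SD hypothalamic 67_66 (0.0231), Balb/c HFHS rest brain 47_25 (0.0457), Balb/c SD rest brain 42_46 (0.0428) and Balb/c SD hypothalamic 37_41 (0.0440). The other was C57Bl/6J SD hypothalamic 43_47 (−0.78, adjusted p 0.0485). Ctla4 was called lower without the hypothalamic libraries C57Bl/6J HFHS 06_10 (−0.81, adjusted p 0.00612) or Balb/c HFHS 15_21 (−0.76, 0.0154). Ikzf4 was called lower without the hypothalamic libraries C57Bl/6J HFHS 72_76 (−4.02, 0.0141) or C57Bl/6J SD 11_15 (−3.61, 0.0229). Gpr83 could not be fitted. Foxp3 in activated Tconv differed between tissues by −0.42 (SE 0.73, adjusted p 0.777).

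Diet was tested within each of the 4 populations, with strain as a term of the fit. In rest brain Tregs edgeR called 0 of 9 members and 0 of 11679 genes, or 0% of genes, while 3 members and 850 genes had an unadjusted p under 0.05. DESeq2 called 326 genes and limma-voom 16. The member nearest to a call was Nrp1, higher on HFHS diet with a log2 fold change of 0.99 (SE 0.26, p 0.00172, adjusted p 0.487). Nrp1 ranged from 266 to 856 CPM in the 8 HFHS libraries and from 111 to 297 CPM in the 6 SD libraries, and 7 of the 8 were above every SD library. Within the strains the log2 fold change was 1.15 (p 0.0160) in Balb/c and 0.93 (p 0.0289) in C57Bl/6J, from the edgeR fit. DESeq2 called Nrp1, at 0.96 with an adjusted p of 0.0140, in a range from 0.0140 to 0.9998 over the alternatives. The other two members under 0.05 were Izumo1r, higher on HFHS diet at 0.65 (p 0.0182, adjusted p 0.494), and Il2ra, lower at −0.58 (p 0.0384, adjusted p 0.593). Foxp3 moved by −0.30 (SE 0.23, p 0.203).

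In hypothalamic Tregs edgeR called 0 of 9 members for diet and 0 of 7708 genes, or 0% of genes, with 0 members and 212 genes under an unadjusted p of 0.05. DESeq2 called 0 members and 182 genes, limma-voom 0 members and 4 genes. Without the 2 libraries that stood apart edgeR called 0 of both, with 575 genes under 0.05. Il2ra was not called, with a log2 fold change of 3.66 (SE 1.99, p 0.0769, adjusted p 1), and it ranged from 207 to 675 CPM on HFHS diet and from 0 to 757 CPM on SD. Within Balb/c alone the log2 fold change was 6.66 (SE 2.66, p 0.0296, adjusted p 0.831 in edgeR). The number of called genes was 10 without the Balb/c SD library 42_46, and 7 without Balb/c SD 06_10 or C57Bl/6J SD 62_66. It was 2 without Balb/c SD 37_41 or C57Bl/6J SD 43_47, and 1 without Balb/c HFHS 15_21, C57Bl/6J HFHS 77_80 or C57Bl/6J HFHS 33_37. The median log2 fold change of all genes was 0.19, and 0.03 with the size factors of DESeq2.

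In activated Tconv of the hypothalamus edgeR called 0 of the 6 members tested and 0 of 10846 genes for diet, or 0% of genes, with 0 members and 405 genes under an unadjusted p of 0.05. DESeq2 called 0 members and 9 genes, limma-voom 0 of both. In activated Tconv of the rest brain edgeR called 0 of the 7 members tested and 0 of 12257 genes, or 0% of genes, with 1 member and 594 genes under 0.05. DESeq2 called 0 members and 12 genes, limma-voom 0 members and 1 gene. The member under 0.05 was Ikzf4, higher on HFHS diet by 3.51 (SE 1.34, p 0.0174, adjusted p 0.922), at levels that did not pass 10.996 CPM. Foxp3 in these cells moved by 0.32 (SE 0.83), less than its SE.

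The strains were compared with diet as a term, and each difference is one of strain and sex together. Foxp3 lies on the X chromosome, of which females carry a pair. In rest brain Tregs edgeR called 0 of 9 members, beside 35 of 11679 genes, or 0.3% of genes, with 4 members and 1037 genes under an unadjusted p of 0.05. DESeq2 and limma-voom called 0 members as well. The 4 were Ctla4, lower in Balb/c at −0.56 (p 0.0121, adjusted p 0.259), Izumo1r, lower at −0.53 (p 0.0473), Il2ra, higher at 0.61 (p 0.0302), and Nrp1, higher at 0.61 (p 0.0305). Foxp3 differed by 0.22 (SE 0.23, p 0.342), less than its SE. Its group means were 372 ± 98.8 CPM (SD, n = 4) in C57Bl/6J on SD, 345 ± 45.96 (n = 4) in C57Bl/6J on HFHS diet, 527 ± 339 (n = 2) in Balb/c on SD and 369.6 ± 47.7 (n = 4) in Balb/c on HFHS diet.

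In hypothalamic Tregs edgeR called 0 of 9 members between strains, beside 3 of 7708 genes, or 0.0389% of genes, with 0 members under an unadjusted p of 0.05. DESeq2 called 250 genes and 1 member, Lrrc32, lower in Balb/c, and limma-voom called 13 genes and 0 members. Without the 2 libraries that stood apart 0 members and 2 genes were called. The 3 genes fell to 1 when any 1 of 10 libraries was left out, among them the Balb/c SD library 37_41 and the C57Bl/6J HFHS library 72_76. The remaining ones were Balb/c SD 42_46 and 06_10, Balb/c HFHS 16_20, C57Bl/6J SD 67_71, 43_47, 11_15 and 62_66, and C57Bl/6J HFHS 33_37. The median of all genes was −0.28, and −0.16 with the size factors of DESeq2. Between strains 0 of the 6 members tested in hypothalamic activated Tconv were called by edgeR, DESeq2 or limma-voom, beside 228 of 10846 genes, or 2.1% of genes, and 0 members had an unadjusted p under 0.05. In rest brain activated Tconv 0 of the 7 members tested were called by edgeR, DESeq2 or limma-voom, beside 2891 of 12257 genes, or 23.6% of genes. There too 0 members had an unadjusted p under 0.05.

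Other genes linked to Tregs were read for comparison. Of 20 such genes beside the members, 16 were called higher and 1 lower in rest brain Tregs, with a median log2 fold change of 2.01. Itgb8, which activates transforming growth factor beta, had 8.18, the receptor gene Tnfrsf9 6.56, the adaptor gene Swap70 5.83 and the integrin gene Itgae 3.98. Plagl1 was the gene called lower, and it was at 0 in 13 of 14 Treg libraries. In the hypothalamus 7 of 19 were called higher and 2 lower, with a median of 1.29. Cd83 had 7.83, Tnfrsf9 5.22, the cytokine subunit gene Ebi3 4.81 and Itgb8 3.90. Il10, the gene of an inhibitory cytokine, was lower at −6.25, and Nt5e, the gene of CD73, was lower at −3.49. Both were also called in the interaction, Il10 at −8.34 and Nt5e at −4.41, with Il2rb at −2.14 as the third of 3. Several of these folds rested on few libraries. In the hypothalamus Il10 was at 0 in 15 of 16 Treg and 11 of 16 activated Tconv libraries. Itgb8 was at 0 in 9 and 15 of them, with means of 1.81 and 1.14 CPM. Cd83 was at 0 in 6 and 8, Ebi3 in 6 and 10, and Nt5e in 7 and 0. Between tissues, Tregs had 3 of these genes lower in the hypothalamus, Il10 at −9.20, Itgb8 at −4.69 and Nt5e at −4.50. In activated Tconv 3 were higher and 3 lower in the hypothalamus, led by Cish at 0.97 and by Cd83 at −3.96. Il2rb followed at 0.96 and Capg at 0.59, and Tnfrsf4 was at −0.48 and Icos at −0.39. Over all genes tested, 5.14% were called higher in rest brain Tregs and 0.747% in hypothalamic Tregs. The shares called in either direction were 11.2% in the interaction, 11.3% in Tregs between tissues and 22.8% in activated Tconv between tissues. The counts of this list in the interaction and between tissues were near those shares.

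Of 20 regulators of Foxp3 transcription, 4 were called higher and 1 lower in rest brain Tregs, with a median of 0.07. The share of all genes called there was 19.1%. Nr4a1 had 2.002, Stat5b 1.93, Foxo1 0.85 and Ets1 0.49, while Ikzf1, which encodes Ikaros, had −1.14. In the hypothalamus 0 were called higher and 7 lower, with a median of −1.19. Of all 11251 genes tested there 33.4% were called, with 84 higher in Tregs. The count of regulators was thus near the share of all genes. Smad3 had −5.21, Nfatc2 −4.80 and Nr4a3 −4.55, and Foxo3 was at 0 in every hypothalamic Treg library. Smad3 and Nfatc2 were each at 0 in 9 of 16 hypothalamic Treg libraries and Nr4a3 in 13. The interaction called 4 of them, each downward, and so did the comparison of Tregs between tissues, while activated Tconv had 0 called between tissues. Over all genes tested the shares called were 11.2%, 11.3% and 22.8%, in that order.

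Of 12 genes of conventional T cells that are low in Tregs, 0 were called higher and 7 lower in rest brain Tregs, with a median of −4.01, or −5.04 with the 3 genes without counts on 1 side set at their bound. Over the 11 genes with a fitted fold the median was −4.21. Il2, the gene of interleukin 2 that Foxp3 represses, was at 0 in 13 of 14 rest brain Treg libraries and at 42.8 to 322 CPM in activated Tconv, with a median of 102 CPM. Il4 was at 0 in all 14 Treg libraries and at 8.63 to 76.3 CPM in activated Tconv. Pde3b, which Foxp3 also represses, was at 0 in 12 of 14 Treg libraries against 21.5 to 106 CPM. Il21 was at 0 in all 14 against 0 to 59.9 CPM. In the hypothalamus 0 of 11 were called higher and 8 lower, with a median of −4.20, or −5.06 over the 10 with a fitted fold. Il2 and Il4 were not part of the sort. In activated Tconv of the hypothalamus 2 of these genes were lower than in the rest brain, Il2 at −0.80 and Il7r at −0.50. Of all genes tested, 19.1% were called between cell types in the rest brain and 33.4% in the hypothalamus. Between tissues in activated Tconv the share was 22.8%.

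Genes of other cells gave the background. Of all genes tested between cell types, 19.1% were called in the rest brain and 33.4% in the hypothalamus. In the rest brain the 8 T cell genes had a median log2 fold change of 0.01, with 4 called higher, Cd5 0.96, Cd2 0.56, Lck 0.49 and Cd3e 0.30, and 3 lower, Cd3g −0.48, Cd3d −0.33 and Lat −0.28. In the hypothalamus 0 of the 8 were called, with a median of −0.40. Of the genes of CD8 T cells, 2 of 2 were lower in Tregs of both tissues. For genes of natural killer cells this was 3 of 3 in the rest brain and 2 of 2 in the hypothalamus. In the rest brain the microglial genes Cx3cr1, Tmem119 and Sall1 were lower in Tregs. In the rest brain 2 of 3 astrocyte genes were lower, the endothelial gene Pecam1 was higher at 1.62 and the erythroid gene Hba-a1 higher at 7.82. Genes of B cells, macrophages, neurons and oligodendrocytes had 0 called in either tissue, and in the hypothalamus astrocyte, endothelial and erythroid genes had 0 as well. Between tissues, activated Tconv had 6 of 8 microglial genes lower in the hypothalamus, with 3 T cell genes higher and 3 lower. They also had 2 oligodendrocyte genes and 1 gene each of natural killer cells, B cells, macrophages, neurons and astrocytes lower, and 0 of CD8 T cells, endothelial or erythroid cells. The part of other cells in the difference between tissues was not tested. The interaction and the comparison of Tregs between tissues called 0 marker genes of any of these cells. For diet 0 genes of any of these lists were called. For strain, activated Tconv of the rest brain had 2 other Treg-associated genes higher and 7 lower in Balb/c, 1 regulator higher and 4 lower, and 3 conventional T cell genes higher and 1 lower. They had 2 T cell genes higher and 3 lower, 2 microglial genes and 1 gene each of CD8 T cells, neurons and oligodendrocytes higher, and 1 natural killer gene lower. Hypothalamic activated Tconv had 1 other Treg-associated gene and 1 T cell gene higher in Balb/c, and Tregs had 0 genes of any list in either tissue. Over all genes tested in activated Tconv, the share called for strain was 23.6% in the rest brain and 2.1% in the hypothalamus. The count of regulators in the rest brain was near that share. Between tissues the share called in activated Tconv was 22.8%.

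The genes most like Foxp3 over the 59 libraries, by Pearson r of log2 levels among 9554 genes, were Ctla4 (0.784), Tnfrsf9 (0.748), Flicr (0.745) and Tnfrsf4 (0.742). Wls (0.731), Rln3 (0.719), Capg (0.709) and Izumo1r (0.677) followed. Of the other members, Ikzf4 had an r of 0.551, Nrp1 0.526, Il2ra 0.514, Lrrc32 0.510, Gpr83 0.427 and Ikzf2 0.386. These libraries share the split into Tregs and activated Tconv, which an r over all of them reflects. Over the 30 Treg libraries alone, among 9599 genes, the list held none of the members. It was Dnajc9 (0.903), Rbm42 (0.893), Septin9 (0.875), Lcp2 (0.868), Hcls1 (0.859), Arhgef1 (0.839), Spint2 (0.831) and Snrpa1 (0.830). Ctla4 had an r of 0.608 there and Ikzf2 of −0.218. The points of this second set share the tissue difference and the uneven gene numbers of hypothalamic Tregs.

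The pilot gave counts per gene symbol for 8 hypothalamic libraries without replicates, so its values carry intervals for counting error only and were not tested. Its pools came from 9 mice for Foxp3-GFP Balb/c on either diet, and from 7 mice for ob/ob and for C57Bl/6J wild-type mice. In the Foxp3-GFP mice Tregs were CD4+ CD25+ Foxp3-GFP+ and the CD4 T cells were CD25− with low to intermediate CD44. Without the reporter, Tregs of ob/ob and wild-type mice were sorted by high CD25. Total counts ranged from 99925 in ob/ob Tregs to 5334511 in wild-type Tregs. Genes of the wild-type Treg library went against its label. It held 37813 CPM of microglial genes, 99.7 CPM of T cell genes, 13 counts of Foxp3 and 0 counts of Il2ra, Ctla4, Ikzf2, Izumo1r, Lrrc32 and Gpr83. The matching CD4 T cell library held 66 counts of Foxp3, 299.5 CPM, with Ikzf2 at 794 CPM and Ctla4 at 340 CPM. Other pilot Treg libraries held genes of other cells as well. The ob/ob Tregs held 1661 CPM of astrocyte and 721 CPM of macrophage genes beside 7516 CPM of T cell genes. SD Tregs held 730 CPM of astrocyte and 339 CPM of neuronal genes beside 5840 CPM of T cell genes. In HFHS Tregs the astrocyte genes were at 34.0 CPM and the macrophage and neuronal genes at 0.

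On SD the pilot's Foxp3 did not separate the cells. Tregs held 93 counts (75.3 CPM, 95% interval 60.8 to 92.3) and CD4 T cells 241 counts (72.7 CPM, 63.8 to 82.5), a ratio of 1.04. The other Treg genes did separate them. Ikzf2 had 3513 counts (2846 CPM) in SD Tregs and 29 counts (8.75 CPM) in SD CD4 T cells, a ratio of 325. Il2ra was at 735 CPM against 19.0 CPM, Ctla4 at 749 against 24.7 CPM, Izumo1r at 282 against 46.1 CPM and Gpr83 at 159.6 against 9.65 CPM. On HFHS diet Foxp3 separated them too, with 184 counts in Tregs (90.7 CPM, 78.0 to 105) and 3 counts in CD4 T cells (1.38 CPM, 0.285 to 4.03), a ratio of 65.7. Ikzf2 had 3111 counts in HFHS Tregs and 1 count in HFHS CD4 T cells. Nrp1 and Izumo1r differed less there. Izumo1r was at 104 CPM in Tregs and 66.7 CPM in CD4 T cells on HFHS diet. Nrp1 was at 102 CPM in Tregs and 73.1 CPM in CD4 T cells on HFHS diet, and at 178 and 85.4 CPM on SD. In ob/ob mice Foxp3 had 27 counts in Tregs (270.2 CPM, 178 to 393) and 48 counts in CD4 T cells (27.8 CPM), a ratio of 9.72, while Il2ra and Nrp1 had 0 counts in that Treg library. Ikzf4 was at 45.3 CPM in HFHS and 6.48 CPM in SD Tregs. Lrrc32 had 0 counts in both HFHS libraries and in SD CD4 T cells, and 6 counts in SD Tregs.

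**Figure D3:**
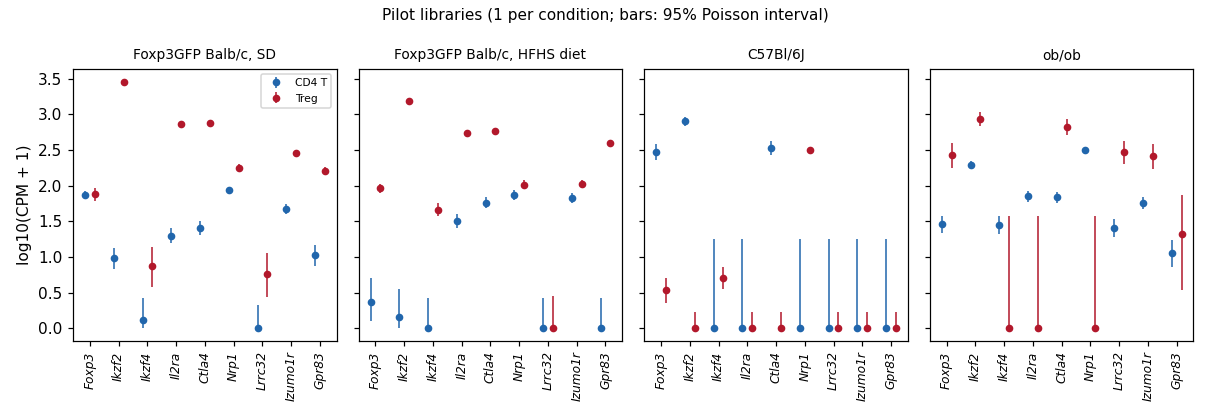
Level of the 9 genes as log10(CPM + 1) in the 8 pilot libraries, with bars for the 95% Poisson interval of the count. On SD the Foxp3 points of Tregs and CD4 T cells meet at 75.3 and 72.7 CPM while Ikzf2 lies at 2846 and 8.75 CPM, and the wild-type Treg library holds 0 counts of 6 of the genes.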

How the data were processed

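RNA of sorted T cells was sequenced in a larger experiment of 59 libraries and a pilot of 8. For the larger one the authors deposited Salmon expected counts (estimated counts) per RefSeq name, not normalised between libraries. They also deposited TPM per name from Salmon, scaled by effective length. For the pilot they deposited raw counts per gene symbol, from reads mapped to mm10 with BWA and counted with HTSeq. Versions of BWA, HTSeq and Salmon are not given in the sources used here.

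Of 35034 RefSeq names, 34850 (99.5%) were matched to a gene. Counts were summed to 24461 genes and rounded. Groups were compared with edgeR 4.0.16 in R 4.3.3 (TMM scaling, quasi-likelihood F test). A gene was tested when the number of libraries in which it passed 10 counts reached the size of the smallest group. The Benjamini-Hochberg correction covered all genes tested, and calls were made under 0.05. SE was the absolute log2 fold change divided by the square root of F. Cell type was tested in each tissue and as an interaction with tissue, tissue in each cell type, and diet and strain in each population, 13 comparisons in all. Strain and diet were terms of the fits. The pipeline was tested on simulated data, in which the hypothalamic comparison of cell types gave more false calls than the threshold allows. Folds with an SE of 100 or more were taken as not fitted. Replicates are pools of mice. Depth differed between libraries, as given per population in the results, and intervals (exact Poisson, 95%) and the limit of 3 counts for a count of 0 cover counting error only. Alternatives were DESeq2 size factors, the DESeq2 1.42.0 Wald test, a filter of more than 10 counts in total, limma-voom (limma 3.58.1) with sample quality weights, each library left out in turn, the pool label as a replicate block, the diets or strains alone, and, chosen after the data were seen, 2 hypothalamic Treg libraries left out. The pilot, with 1 library per condition, was not tested. Its counts on genes were 0.391% to 17.1% of its reads.

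The genes named are all 9 members, and, from lists, at most the 4 genes per direction with the largest log2 fold changes past the test. The 8 genes most like Foxp3 by Pearson r of log2(TMM-scaled CPM + 1), over 59 libraries and over 30 Treg libraries, among genes with a mean of 5 CPM or more, are named too. The lists were the members, other Treg-associated genes, regulators of Foxp3 transcription, conventional T cell genes low in Tregs, and markers of T cells, CD8 T cells, natural killer cells, B cells, microglia, macrophages or monocytes, neurons, astrocytes, oligodendrocytes, endothelial and erythroid cells. Members and lists were chosen with earlier results of these data known. Positions and promoter windows came from RefSeq and GENCODE M21 on GRCm38. Tables and figures were made with Python 3.11.15, pandas 2.3.3, SciPy 1.17.1 and matplotlib 3.10.9.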

Additional observations from a re-analysis of the deposited data

Results flagged for a closer look

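In each group of 4 libraries, a library was picked out when its value lay far from the other 3. By chance this happens in about 1 in 20 groups, and 126 groups were looked at, of which 30 gave such a value. That rate does not apply where the other 3 libraries were at or near 0, as for many values of Ikzf4, Lrrc32 and Gpr83. None of these differences was tested. Values are CPM.

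Foxp3 was lowest, at 298.5, in the Balb/c HFHS rest brain Treg library 15_21. Ikzf2 was highest, at 1144, in the C57Bl/6J SD rest brain Treg library 11_15. Il2ra was highest, at 18.3, in the Balb/c SD hypothalamic Treg library 37_41. Ctla4 was highest in hypothalamic activated Tconv library 06_10 of C57Bl/6J on HFHS diet (236) and library 15_21 of Balb/c on HFHS diet (157). Nrp1 was lowest, at 26.6, in the C57Bl/6J SD rest brain activated Tconv library 11_15, and highest, at 1993, in the C57Bl/6J HFHS hypothalamic Treg library 06_10. Izumo1r was highest in the C57Bl/6J SD hypothalamic activated Tconv library 67_66 (202) and in the C57Bl/6J HFHS rest brain Treg library 38_42 (1072).

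Ikzf4 was picked out in 8 groups, in which 1 library was above the rest. Among hypothalamic Tregs these were Balb/c SD 06_10 (195), C57Bl/6J HFHS 72_76 (65.4) and C57Bl/6J SD 43_47 (1.16). Among rest brain Tregs they were Balb/c HFHS 47_25 (120.3) and C57Bl/6J SD 62_66 (46.6). Among hypothalamic activated Tconv they were C57Bl/6J SD 11_15 (39.8), C57Bl/6J HFHS 72_76 (11.7) and Balb/c HFHS 26_31 (0.0510, a single count).

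Gpr83 stood above the rest in the hypothalamic Treg libraries C57Bl/6J SD 67_71 (71.9) and C57Bl/6J HFHS 06_10 (29.96), and in the C57Bl/6J SD rest brain Treg library 62_66 (22.9). In hypothalamic activated Tconv it did so in C57Bl/6J HFHS 72_76 (7.24), Balb/c SD 42_46 (4.35) and C57Bl/6J SD 67_71 (3.55). Lrrc32 was highest, at 869, in the C57Bl/6J HFHS hypothalamic Treg library 06_10. Single counts of Lrrc32, under the limit of 3 counts, gave 0.0977 in the hypothalamic Treg library Balb/c SD 32_36, and 0.0650 and 0.0518 in the hypothalamic activated Tconv libraries Balb/c SD 42_46 and Balb/c HFHS 16_20. The other libraries of these groups were at 0, so these values do not differ from them beyond counting error.

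The summed T cell genes were lowest, at 5845, in the Balb/c HFHS hypothalamic Treg library 16_20. The summed microglial genes were highest in the hypothalamic Treg libraries Balb/c SD 32_36 (28836) and C57Bl/6J HFHS 06_10 (729).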

How the results depend on the processing

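Member calls between cell types held under most alternatives, and the numbers of genes called moved more. For cell type in the rest brain the filter on total counts gave 4025 genes and the replicate block 1694, with 8 members and Ikzf4 lost. In the hypothalamus limma-voom gave 7288 genes, and the replicate block called 5 members. In the interaction DESeq2 gave 4772 genes and 2 members, limma-voom 6246 genes and 1 member, and leaving out the 2 libraries 2794 genes. For Tregs between tissues DESeq2 gave 3555 genes and 1 member, limma-voom 5466 genes and 6 members, and the replicate block 0 genes, with 2299 at an unadjusted p under 0.05. For activated Tconv between tissues the filter on total counts gave 5170 genes and 3 members, DESeq2 3 members, limma-voom 4 members and the replicate block 116 genes. The block took pool labels as the same mice, which the data did not establish.

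For diet in hypothalamic Tregs DESeq2 gave 182 genes, the filter on total counts 39 and limma-voom 4. In rest brain Tregs DESeq2 gave 326 genes and 1 member, and limma-voom 16 genes. In hypothalamic activated Tconv DESeq2 gave 9 genes, and in those of the rest brain DESeq2 gave 12 and limma-voom 1. For strain in hypothalamic Tregs DESeq2 gave 250 genes and 1 member, the filter on total counts 11, limma-voom 13, SD alone 0 and HFHS alone 1. In rest brain Tregs DESeq2 gave 298 genes, limma-voom 123 and SD alone 2. In hypothalamic activated Tconv DESeq2 gave 459 genes, SD alone 47 and HFHS alone 67, and in rest brain activated Tconv SD alone gave 809.

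With each library left out in turn, genes called ranged from 1296 to 3362 for cell type in the rest brain and from 3457 to 4846 in the hypothalamus. Members called ranged from 8 to 9 and from 6 to 8. For Tregs between tissues the range was 600 to 2342 genes and 0 to 1 members, and for activated Tconv 2588 to 3174 genes and 1 to 2 members. Diet gave 0 to 10 genes in hypothalamic Tregs and 0 in the other populations. Strain gave 1 to 3 genes in hypothalamic Tregs, 26 to 41 in rest brain Tregs, 177 to 260 in hypothalamic and 2467 to 2930 in rest brain activated Tconv. With single libraries left out, edgeR called no member for diet or strain. The pilot's log2 ratio of Foxp3 on SD turned from 0.05 to −0.00520 with median-of-ratios scaling. The cause of these shifts was not tested.

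The alternative without the 2 libraries that stood apart was chosen after seeing the data. Strain and sex cannot be told apart. On simulated data, calls between hypothalamic cell types held more false ones than the threshold allows. Hypothalamic Tregs gave few genes per library, and the pools limit replicates to 2 to 4 per group. Counting intervals leave out variation between animals. Strand use in counting, and the reads shared by transcripts of Foxp3, limit its low values in activated Tconv.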
